A study of Mus musculus with 2 samples.

Results

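The regions described here are H3K4me3 peaks in the olfactory receptor gene clusters of mouse prospermatogonia. They were chosen by position alone: the summit of a peak lay within 50 kb of a gene whose symbol is Olfr plus a number, and over 5 kb from both ends of every protein-coding gene that is not an olfactory receptor. Of 135064 peaks in the deposited list, 1907 (1.41%) met this rule. The cells, germ cells of the mouse testis before birth, were sorted at stage E17.5 on an Oct-GFP reporter, and 130000 of them went into each CUT&RUN assay, in which an antibody directs a nuclease to chromatin. The design holds 1 library with an antibody to H3K4me3 and 1 with rabbit IgG, both from the same kind of cells, with no replicates. Genotype and strain are not given in the labels, and no peak list of the IgG library was used here. The names of the peaks carry the letters wIgG, but no label says whether IgG was the control in peak calling, so fold and background may refer to either library. With 1 library no test between groups was possible, and the intervals below cover counting error only.

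Olfactory receptors are G protein-coupled receptors of olfactory sensory neurons, each of which uses a single allele of a single receptor gene while the rest of the family stays silent. Their genes stand in tandem clusters, mostly with the whole coding sequence in a single exon and transcription starting at a short noncoding exon further upstream. H3K4me3 is a mark of active and poised promoters, and transcripts of some receptor genes are known from testis and sperm. The gene table holds 1116 Olfr genes on the chromosomes, with a median length of 951 bp, of which 1105 are protein-coding. Those shorter than 1200 bp, 946 in number (84.8%), are called compact here. In 644 of the 795 compact genes with a start window in RefSeq, the annotated gene begins with the letters ATG. For such a gene the annotated start is the start of the coding sequence, and a noncoding first exon further upstream is not in the model.

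The sequences below show how far peaks inside receptor genes reached past the annotated start. The windows shown run from 250 bases before to 50 after the start, 5′ to 3′ on the coding strand, from RefSeq (GRCm38.p6, which corresponds to mm10), with the gene beginning at base 251. Capitals mark the bases under a peak. The first 3 belong to the receptor genes of highest fold among those that begin with ATG, hold the summit of the peak and have bases of the window under it. The last 2 are well-studied receptors, one with a peak inside the gene and one with none. The windows lie at chr7:103506895-103507194 (minus strand), chr7:103670980-103671279 (minus strand), chr1:174430180-174430479 (plus strand), chr7:107097217-107097516 (plus strand) and chr2:88035088-88035387 (minus strand).
Olfr610: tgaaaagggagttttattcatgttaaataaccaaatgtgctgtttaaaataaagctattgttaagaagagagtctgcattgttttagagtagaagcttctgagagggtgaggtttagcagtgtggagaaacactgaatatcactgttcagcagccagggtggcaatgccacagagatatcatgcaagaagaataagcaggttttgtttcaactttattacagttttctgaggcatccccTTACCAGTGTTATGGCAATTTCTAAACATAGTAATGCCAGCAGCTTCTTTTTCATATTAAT
Olfr624: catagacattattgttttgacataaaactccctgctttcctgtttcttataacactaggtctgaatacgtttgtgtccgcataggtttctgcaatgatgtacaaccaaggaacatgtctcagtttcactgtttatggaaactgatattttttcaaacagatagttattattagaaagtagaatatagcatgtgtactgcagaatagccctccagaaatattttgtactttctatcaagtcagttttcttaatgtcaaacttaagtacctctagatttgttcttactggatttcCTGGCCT
Olfr414: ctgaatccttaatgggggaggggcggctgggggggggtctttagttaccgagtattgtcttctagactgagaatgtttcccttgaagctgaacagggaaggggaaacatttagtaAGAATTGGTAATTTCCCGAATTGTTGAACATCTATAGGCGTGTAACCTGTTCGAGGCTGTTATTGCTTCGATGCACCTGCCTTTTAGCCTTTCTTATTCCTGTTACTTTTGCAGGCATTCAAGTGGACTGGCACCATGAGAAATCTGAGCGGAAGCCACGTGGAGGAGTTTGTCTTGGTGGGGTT
Olfr17: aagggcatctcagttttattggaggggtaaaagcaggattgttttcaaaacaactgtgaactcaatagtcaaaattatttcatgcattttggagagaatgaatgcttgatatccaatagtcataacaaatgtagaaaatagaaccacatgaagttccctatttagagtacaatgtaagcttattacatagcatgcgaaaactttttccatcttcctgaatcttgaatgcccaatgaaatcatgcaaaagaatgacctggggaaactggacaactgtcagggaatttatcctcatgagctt
Olfr73: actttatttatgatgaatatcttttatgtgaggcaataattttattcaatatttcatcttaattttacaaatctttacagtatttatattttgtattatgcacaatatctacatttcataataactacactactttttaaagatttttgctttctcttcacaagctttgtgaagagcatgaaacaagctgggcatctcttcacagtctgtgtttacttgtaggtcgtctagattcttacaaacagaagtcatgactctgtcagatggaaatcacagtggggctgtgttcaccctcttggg
At Olfr610 the peak covered 61 bases of the window, 11 of them before the gene. At Olfr624 it covered 7 bases, none of them before the gene. At Olfr414 it reached further and covered 135 of the 250 bases before the gene. The peak of Olfr17 began after the window, and no peak touched the window of Olfr73. In the 250 bases before the start the GC content was 38.4% for Olfr610, 33.6% for Olfr624, 46.4% for Olfr414, 33.6% for Olfr17 and 28.4% for Olfr73.

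Peaks were denser in receptor territory than in other sequence over 5 kb from protein-coding gene ends. Receptor territory, the 31.46 Mb that can hold a member, had 60.6 peaks per Mb (exact 95% Poisson interval 57.9 to 63.4). All other sequence over 5 kb from protein-coding gene ends, gene interiors and noncoding genes included, had 42.8 per Mb (42.6 to 43.1), which gives a ratio of 1.42. That value divides by the span from the first to the last annotated gene of each chromosome, assembly gaps included. The same rule applied to the 354 Vmn1r and Vmn2r genes, the vomeronasal receptors of pheromone-sensing neurons, gave 57.2 per Mb (54.0 to 60.5), an interval that overlaps that of receptor territory. Of the members 1538 (80.7%) had their summit in no annotated gene, 215 (11.3%) in an Olfr gene, 23 in an Olfr pseudogene, 58 in another pseudogene, 46 in another protein-coding gene and 25 in a long noncoding RNA gene. The median distance from summit to the nearest Olfr gene was 6583 bp, with quartiles of 3069 and 14012 bp. Members covered 3.51% of the territory, and 836 of the 1116 genes were the nearest gene of at least 1 member.

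Clusters differed in density, and their counting intervals did not all overlap. These intervals take each peak as a separate event. Joined over 1000 bp, the 1907 members form 1620 domains, so the intervals may be too narrow. Genes less than 500 kb apart were joined into 54 clusters, of which 23 held at least 10 genes and together 1688 members. In these 23 the density ran from 20.7 to 93.1 members per Mb. The interval lay wholly above 42.8 per Mb in 11 clusters, wholly below it in 2 and around it in 10. That value is for all chromosomes together, and by chromosome it ran from 33.4 on chromosome 9 to 49.6 on chromosome 3. The largest cluster, from Olfr987 to Olfr1274 on chromosome 2 (85330967 to 90401674), has 225 genes. It held 473 members, 24.8% of all, at 93.1 per Mb (84.9 to 102), while other sequence over 5 kb from ends on chromosome 2 had 37.2. Without that cluster the density of receptor territory was 54.4 per Mb (51.6 to 57.3). The clusters from Olfr310 to Olfr292 on chromosome 7 and from Olfr172 to Olfr209 on chromosome 16 were nearly as dense, at 90.6 (66.1 to 121) and 90.3 (68.9 to 116) per Mb. Other sequence over 5 kb from ends had 37.1 per Mb on chromosome 7 and 47.0 on chromosome 16.

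At the other end stood the cluster from Olfr433 to Olfr220 on chromosome 1, with 20.7 per Mb (9.47 to 39.3), and that from Olfr20 to Olfr412 on chromosome 11, with 25.4 (16.5 to 37.6). Other sequence over 5 kb from ends had 45.3 per Mb on chromosome 1 and 34.5 on chromosome 11. The value for chromosome 11 lies within the interval of its cluster. The cluster from Olfr543 to Olfr692 on chromosome 7 (102476773 to 105369317) is the one of the class I receptors, the family branch related to fish receptors. Its 127 genes had 125 members at 52.3 per Mb (43.5 to 62.3), within the range of the other clusters. All 54 clusters had at least 1 member, among them the 10 that consist of a single gene.

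**Figure D1:**
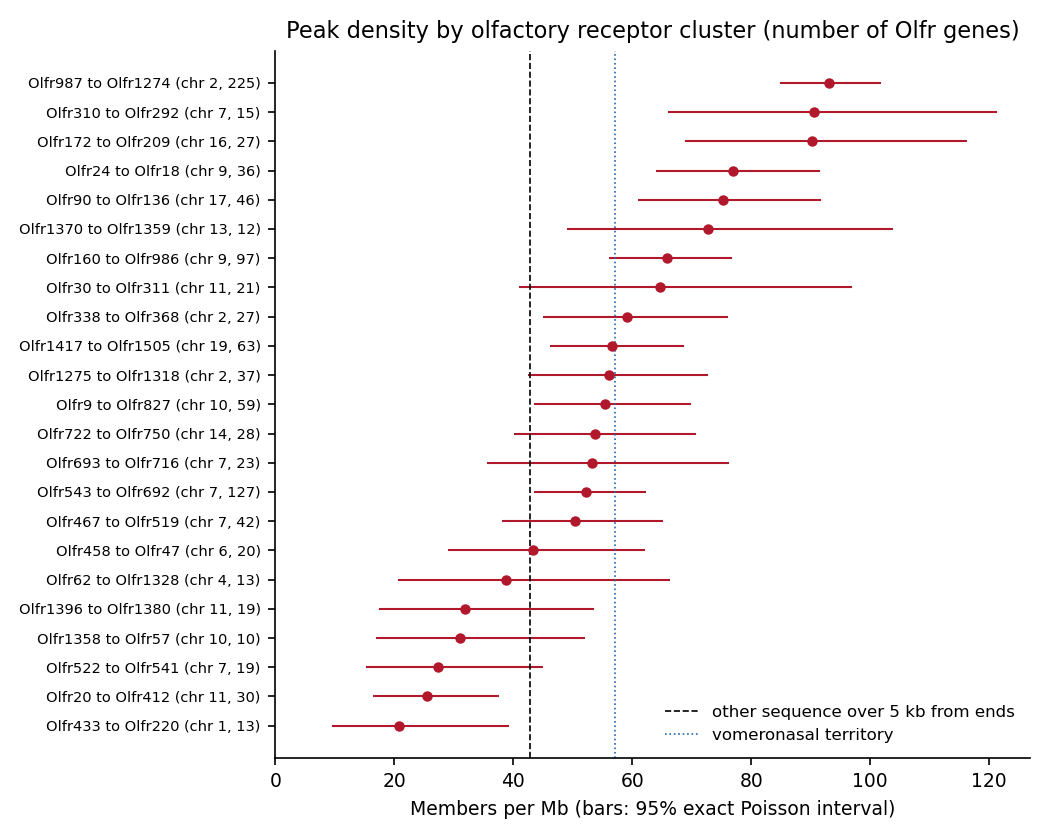
Members per Mb (x axis) in the 23 clusters with at least 10 Olfr genes (y axis, with chromosome and number of genes). Points are densities and bars exact 95% Poisson intervals. The dashed line marks 42.8 per Mb in other sequence over 5 kb from protein-coding ends and the dotted line 57.2 per Mb in vomeronasal territory. The chromosome 2 cluster with 225 genes is highest at 93.1 per Mb.

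Members were much like other peaks over 5 kb from protein-coding ends in height. The fold, taken here as the deposited enrichment over the local background of the peak caller, had a median of 6.24 with quartiles of 4.82 and 8.03 and a range from 2.14 to 14.9. Other peaks over 5 kb from protein-coding ends, 99291 in number, had a median of 6.30 with quartiles of 4.82 and 8.06. Pileup, the number of fragments over the summit, had a median of 22 with quartiles of 16 and 32, against 24, 17 and 34. Median width was 479 bp against 531 bp. A fold of at least 10 was found in 115 members (6.03%, Wilson interval 5.05 to 7.19), and the share over all peaks, 6.00%, lay within that interval. The lowest local background, 2.11 fragments, applied to 788 members (41.3%), against 38.9% of the other peaks. For all of these, a mark in few cells and a weak mark in many cells cannot be told apart.

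The 10 members of highest fold lay on 8 chromosomes, and none had its summit in an annotated gene. Their folds ran from 12.6 to 14.9, their pileups from 40 to 61 fragments and their distances to the nearest Olfr gene from 1069 to 13552 bp. The highest fold, 14.9 (11.1 to 19.5) with 50 fragments, was 1128 bp from Olfr1465 on chromosome 19 (13311865 to 13312670). It was followed by a peak 4019 bp from Olfr273 on chromosome 4 (52851005 to 52851934) with a fold of 13.998 (10.7 to 17.99) and 59 fragments. A peak 3317 bp from Olfr310 on chromosome 7 (86272982 to 86273553) had 13.4 (10.1 to 17.503). The intervals of these 3 overlap, so their order is not resolved by the counts. The others lay near Olfr1477, Olfr730, Olfr1254, Olfr1161, Olfr286, Olfr965 and Olfr168.

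Some of the tallest and widest members were at pseudogenes without an Olfr symbol. The highest pileup, 77 fragments (60.8 to 96.2), was in such a pseudogene 4367 bp from Olfr214 on chromosome 6 (116550848 to 116552344), and its fold was 6.05 over a background of 11.9 fragments. Next were 71 fragments (55.5 to 89.6) 6151 bp from Olfr867 and 66 (51.0 to 84.0) 8885 bp from Olfr513. Peaks near Olfr832, Olfr965, Olfr921, Olfr130, Olfr273, Olfr1037 and Olfr716 had 58 to 62. Of these 10 only the one at Olfr130, with 59 fragments, had its summit inside a receptor gene. Of the 5 widest members 3 were in pseudogenes of this kind. The widest, of 2239 bp with 51 fragments, lay 3293 bp from Olfr938 on chromosome 9 (39074062 to 39076300), and those near Olfr235, Olfr1122, Olfr221 and Olfr107 measured 1800 to 1914 bp.

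**Figure D2:**
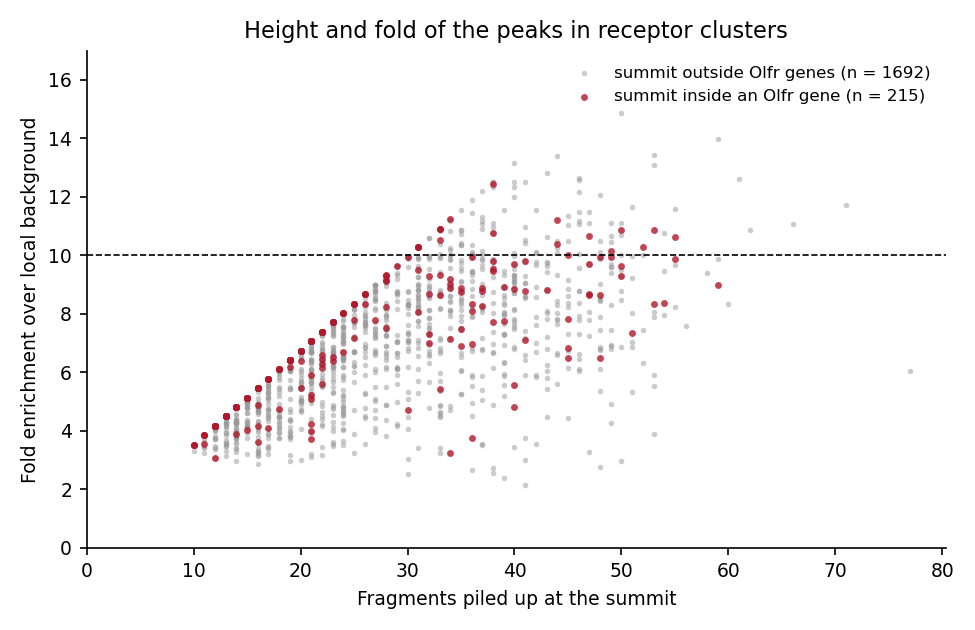
Fold enrichment (y axis) against fragments piled up at the summit (x axis) for the 1907 members, with the 215 whose summit is inside an Olfr gene in red and the other 1692 in grey. The dashed line marks a fold of 10. Red points reach a fold of 12.4 and 59 fragments, grey points 14.9 and 77, and the straight upper edge is the line of peaks with the lowest background.

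Summits were concentrated inside compact receptor genes and sparse just outside them. In the bodies of compact Olfr genes there were 144 members, or 159.5 per Mb (135 to 188). In the first 1000 bp outside them the density was 10.2 per Mb (6.12 to 15.9), from 1000 to 2000 bp it was 43.4 (34.5 to 54.0) and from 5000 to 10000 bp it was 70.3 (64.1 to 77.0). Between 20000 and 50000 bp it was 52.7 (47.4 to 58.4). The sparse zone was not limited to genes with a peak: around the 807 compact genes without a member summit inside, the first 1000 bp held 10.7 per Mb (6.21 to 17.1). Longer Olfr genes, whose models include further exons and introns, had 58.8 per Mb (45.9 to 74.1) in their bodies and 36.2 (18.7 to 63.2) in the first 1000 bp outside. The sparse zone was also seen beside Olfr pseudogenes, with 24.6 (13.8 to 40.6) there and 70.7 (51.0 to 95.6) from 1000 to 2000 bp. For Vmn1r genes these values were 28.6 (15.2 to 48.9) and 39.5 (23.4 to 62.4). Other pseudogenes of 500 to 1500 bp went the other way, with 65.8 (60.6 to 71.4) and 35.1 (31.3 to 39.2).

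The profile along the gene was sharp. In 793 compact Olfr genes with a known strand, counting all peaks of the list, the stretch from 200 to 800 bp after the annotated start held 110 summits, or 231 per Mb (190 to 279). The 1000 bp before the start held 6 summits, or 7.57 per Mb (2.78 to 16.5), and the stretch from 1000 to 2000 bp after it held 10, or 12.6 per Mb (6.05 to 23.2). Further out the values were 44.8 per Mb from 5000 to 1000 bp before the start and 67.7 from 2000 to 5000 bp after it. Compact Vmn1r genes, which also have a single coding exon, showed 0 summits from 200 to 800 bp in 181 genes, where the interval reaches up to 34.0 per Mb. The 1000 bp before their start held 1 summit, or 5.52 per Mb (0.140 to 30.8), an interval that overlaps that of 33.1 (21.2 to 49.3) from 5000 to 1000 bp before it. The excess of summits from 200 to 800 bp was thus seen in Olfr and not in Vmn1r genes, with intervals far apart in this library. Whether it recurs in other libraries was not tested.

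**Figure D3:**
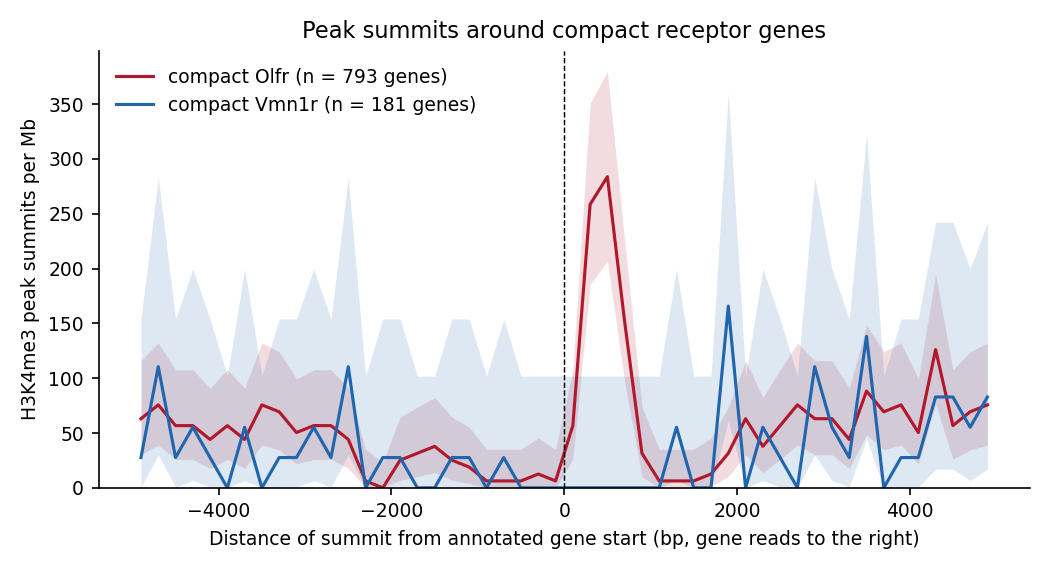
Peak summits per Mb (y axis) in 200 bp bins by distance from the annotated start of 793 compact Olfr genes (red) and 181 compact Vmn1r genes (blue). The x axis runs 5 kb either side in the direction of the gene, and shading gives exact 95% Poisson intervals. The red line reaches 284 per Mb between 400 and 600 bp and stays at or below 12.6 per Mb in the 1000 bp before the start.

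By gene, 143 of 946 compact Olfr genes (15.1%, Wilson interval 13.0 to 17.54) held a summit, and 139 of them held one that is a member. The same intervals moved by 100 kb, often within the same cluster, met one in 5.81% (4.49 to 7.49). Over all protein-coding genes shorter than 1200 bp the share was 23.1%, and in the 743 such genes outside the Olfr and Vmn families it was 39.2% (35.7 to 42.7), so the receptor genes were below other compact genes though above their moved intervals. Compact Vmn1r genes had 0 of 200, a count that allows a share of up to 1.5% taking 3 counts as the limit and 1.88% by the Wilson interval, with 8% after moving (4.98 to 12.6). Olfr pseudogenes, with a median length of 904 bp, had 22 of 311 (7.07%, 4.72 to 10.5), against 9.97% after moving. Pseudogenes of 500 to 1500 bp without an Olfr symbol had 28.6% (27.4 to 29.9), against 4.79% after moving, and 353 summits per Mb in their bodies, so their excess was larger than that of compact Olfr genes. Longer Olfr genes had 31.2% (24.7 to 38.5), against 30.0% after moving, so no excess was detectable in them. In the class I cluster 25 of 110 compact genes held a summit (22.7%, 15.9 to 31.4), against 14.1% (11.9 to 16.6) in the other clusters, with intervals that overlap.

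**Figure D4:**
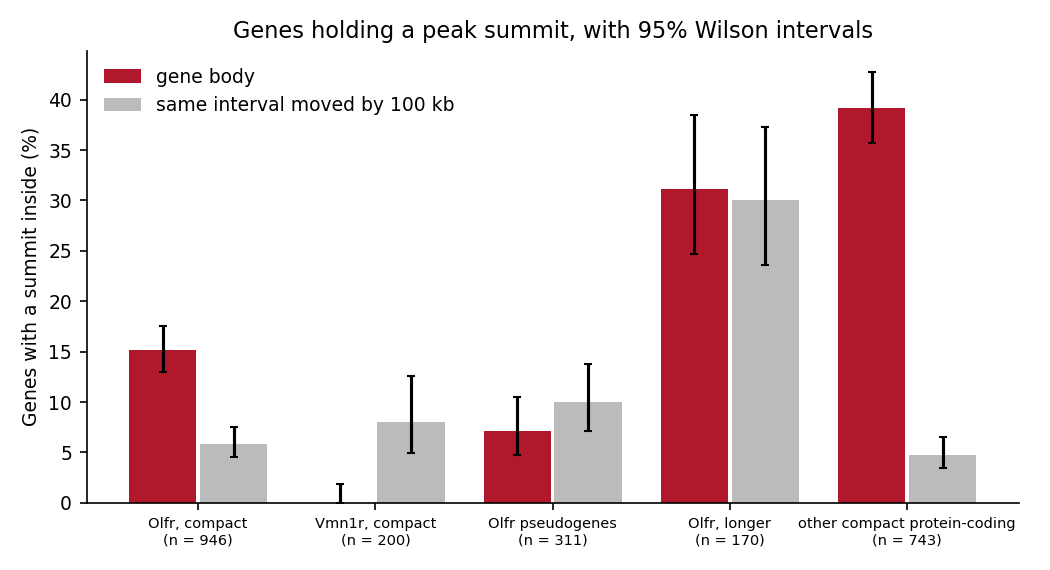
Share of genes with a peak summit inside (y axis, percent) for 5 gene groups (x axis). Red bars are the annotated gene and grey bars the same interval moved by 100 kb, with 95% Wilson intervals. Compact Olfr genes stand at 15.1% against 5.81% after moving, and compact Vmn1r genes at 0.

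Most peaks with the summit inside a compact gene lay wholly within that gene. For 120 such members with a known strand, the summit lay at a median of 480 bp after the annotated start, with quartiles of 320 and 598 bp, in genes of a median length of 948 bp. In 106 of them (88.3%) it lay from 200 to 800 bp. That stretch takes up most of a gene of this length, and the share that position alone would give was not counted. The left edge of the peak was at a median of 107 bp after the start, with quartiles of -21 and 284 bp, and the right edge at a median of -152 bp relative to the gene's end. Of the 120 peaks 72 lay wholly within the gene, 21 passed its start only, 15 its end only and 12 both. The median width of the 120 was 612.5 bp, with quartiles of 350 and 973 bp. Other peaks over 5 kb from protein-coding ends had 531 bp, with quartiles of 279 and 865 bp. Whether the extent of the peaks follows the exon was not tested. The median fold of the 120 was 7.07 and their median pileup 23 fragments. Over all 215 members with a summit inside an Olfr gene, median fold was 6.98 and median pileup 22, against 6.10 and 22 for the 1692 outside, so the pileup at the summit did not differ in its median. A fold of at least 10 was found in 8.37% of the first (5.36 to 12.8) and 5.73% of the second (4.72 to 6.94), with overlapping intervals.

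**Figure D5:**
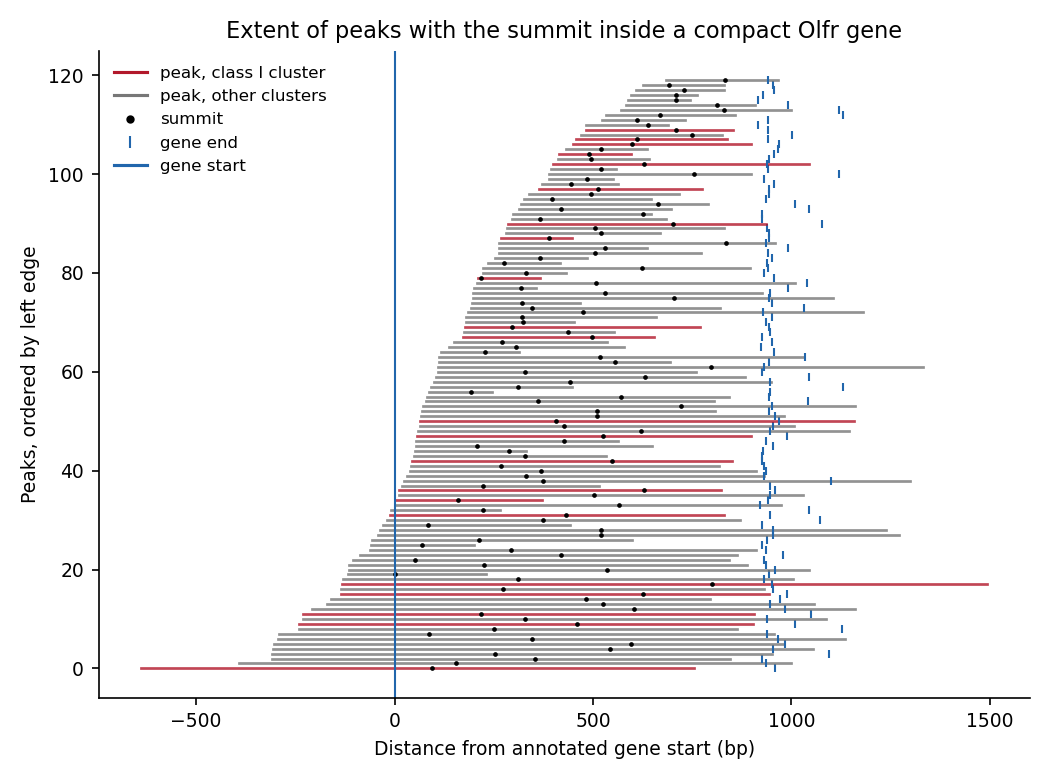
Extent of the 120 peaks whose summit is inside a compact Olfr gene of known strand (lines, ordered by left edge on the y axis), by distance from the annotated gene start in bp (x axis). Dots are summits, the blue line is the start and blue ticks are gene ends. Most lines lie between start and end, and 72 of 120 lie wholly within the gene.

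Base composition could be read only in the windows around the annotated start, which end before most summits. In the 795 start windows of compact Olfr genes, median GC content was 33.2% in the 250 bases before the start and 44.0% in the 50 after it. In 205 Vmn1r windows, where no peak was found (0 of 205, which allows 1.46% taking 3 counts as the limit and 1.84% by the Wilson interval), the values were 34.8% and 42.0%. A peak overlapped 49 of the Olfr windows (6.16%, 4.69 to 8.06), against 52.1% of the windows of all genes. Olfr windows with a peak had a median GC content of 40.7% and those without 34.3%, with a median of 2 and 1 CpG. Of windows of other protein-coding genes 68.1% had a peak, at a median GC content of 57.3% over all of them. The part of base composition, and of sequence shared between receptor copies, in the position of the peaks was not tested.

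The letter patterns below were searched on both strands of these windows, without masking overlaps. TAATTA, the core bound by many homeodomain factors such as Lhx2, was in 18.2% of compact and 20.8% of longer Olfr windows, against 5.29% of all windows. CCCNNGGG, the core of sites of Ebf factors, was in 1.26% and 12.8%, against 13.7%. TATAAA was in 42.6% and 33.6%, against 13.6%. In Vmn1r windows TAATTA, CCCNNGGG and TATAAA were in 7.32%, 0.488% and 42.4%, so TATAAA was about as frequent there as in compact Olfr windows. Median GC content of the whole window was 34.7% in compact Olfr and 36% in Vmn1r genes, against 52.7% in all windows. The part of GC content in these shares was not tested. Longer Olfr windows had a peak in 7 of 149 cases (4.70%, 2.29 to 9.38). Windows of longer genes begin at an upstream exon where the model has one, and the median GC content before the start was 37.2% in them.

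Annotated ends of receptor genes were marked no more often than nearby sequence. Counting any peak that overlaps a window of 1000 bp to each side, an end was marked in 223 of 1116 Olfr genes (19.98%, Wilson interval 17.7 to 22.4), against 74.9% of all protein-coding genes. In compact genes these windows cover the whole gene and its flanks, so the dense bodies and sparse flanks described above are counted together. The share therefore does not speak to the bodies alone. With windows moved by 100 kb to either side the shares were 21.2% and 23.5%. Vomeronasal receptor genes had 7.91% (5.53 to 11.2), below their moved windows at 20.6% and 21.5%. Of the members 202 (10.6%, 9.29 to 12.1) had their summit within 1000 bp of an Olfr end, and 9.12% and 10.6% did so with ends moved either way. An end peak of fold 10 or more was found at 21 of the 1116 Olfr genes. Over all peaks, wherever they lay, 6.00% had such a fold. The share of all protein-coding genes with such an end peak was not counted, so the 21 are only described.

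Those 21 end peaks were of 2 kinds. Summits at Olfr1465, Olfr1254, Olfr628, Olfr957, Olfr1145 and Olfr958 lay 1069 to 1533 bp outside the gene. In the other 15 the summit was inside. Olfr980 on chromosome 9 (40005994 to 40007029) led these with a fold of 12.4, 38 fragments and a peak of 916 bp from 40006001 to 40006916. Olfr610, Olfr605, Olfr599, Olfr624 and Olfr549 of the class I cluster had folds of 11.2, 10.6, 10.6, 10.5 and 10.3 with 34, 47, 55, 33 and 34 fragments. The peak of Olfr549 is not a member, because its summit lay within 5 kb of an end of another protein-coding gene. Olfr17, Olfr1361, Olfr56, Olfr1009, Olfr414, Olfr1423, Olfr734, Olfr317 and Olfr316 had folds from 10.03 to 11.2.

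Of 11 well-studied receptors 5 held a summit, beside 196 of all 1116 Olfr genes (17.56%, 15.4 to 19.9) and 9.50% of their moved intervals. The 11 were picked by name, so the counts are a description. Olfr17, on chromosome 7 (107097467 to 107098414), the receptor used in many studies of axon targeting, had a peak of 1088 bp with 44 fragments (32.0 to 59.1) and a fold of 11.2. Olfr15 on chromosome 16 had 39 fragments (27.7 to 53.3) in a peak of 1249 bp that passed both ends of the gene. Olfr124 had 23 fragments (14.6 to 34.5) and Olfr2, a receptor for octanal, 14 (7.65 to 23.5). In Olfr78, whose model spans 18751 bp, 2 summits lay away from the ends, the higher in fold with 17 fragments (9.90 to 27.2); this receptor of short-chain fatty acids is known from kidney and carotid body.

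The other 6 receptors held none. Olfr16, whose product has been described in sperm, had its nearest summit 13068 bp away, with 17 fragments. For Olfr73, a eugenol receptor, the nearest was 2816 bp away with 21 fragments, and for Olfr558 6613 bp with 41. Olfr160, Olfr151 and Olfr1507 had 17, 20 and 12 fragments at 4379, 18434 and 8756 bp. All of these nearest peaks were members.

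Genes of the olfactory pathway lie outside the clusters and were read at their ends. Of 14 genes of receptor signalling and transport 10 were marked, beside 74.9% of all protein-coding genes. Ano2, a chloride channel of olfactory cilia, had the highest fold, 8.99 with 27 fragments, and Ric8b, a factor for the olfactory G protein, had 7.44 with 53. Adcy3, the adenylyl cyclase, had 6.60 with 59, and Gnal, the G protein alpha subunit itself, had 5.79 with 52. Omp, the marker of mature olfactory neurons, was lowest at 3.53 with 10 fragments. Rtp1 and Rtp2, which carry receptors to the membrane, and the channel genes Cnga2 and Cngb1 had no peak at an end. Of 14 genes known for receptor choice or silencing 13 were marked. Lhx2 had a fold of 11.7 with 44 fragments, Setdb1, an H3K9 methyltransferase, 8.12 with 56 and Ehmt2, another, 7.45 with 24. Ebf1, Ebf2 and Ebf3 had lower folds, 3.33, 2.23 and 2.58, but 68, 46 and 35 fragments. Ldb1 had no end peak.

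Markers were listed for the cell types a sort of fetal testis could hold and, beside them, for olfactory neurons. Of 9 germ cell genes 7 were marked, with Nanos2 and Nanos3 unmarked, against 74.9% of all protein-coding genes. Counts were 4 of 5 for Sertoli, 1 of 5 for Leydig, 1 of 5 for endothelial and blood and 4 of 5 for olfactory neuron genes, so that the germ cell, Sertoli and olfactory neuron counts were near the share over all genes. Among the olfactory neuron genes, Omp, Cnga2, Gnal and Adcy3 are also in the signalling list above. The part of other cells in the members was not tested. At the limits of the rule, the members farthest from a receptor gene lay 49760 bp from Olfr161 (29 fragments) and 49430 bp from Olfr1322 (23). The nearest peaks left out lay 50152 bp from Olfr161 (16) and 50409 bp from Olfr275 (21). Members closest to another gene's end lay 5069 bp from Ilvbl (16) and 5148 bp from Gm12258 (40), and peaks left out 4974 bp from Arhgef40 (38) and 4941 bp from Abhd4 (42).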

How the data were processed

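H3K4me3 CUT&RUN peaks of 1 library were analysed. Builds mm10 and sacCer3 are named in the submitters' processing notes, as are MACS2 (2.1.0), Bowtie2 (2.5.0), deepTools (3.5.1), bedtools (2.27.1), SAMtools (1.16.1) and Trim Galore. Roles and settings: not given in the sources used here. For each peak the authors deposited a fold enrichment (a ratio over the caller's local background), a −log10 p and a −log10 q, a score and a summit offset. These are the authors' values and were used only within this list.

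Whole-number pileups and backgrounds were solved for 135053 of 135064 peaks within 0.0001 from the Poisson −log10 p and the fold, which is their ratio after adding 1 to each. Peaks off the 19 autosomes, X and Y, 387 in number, were left out. The library's total depth is unknown here. Distances used RefSeq genes of GRCm38.p6, which carry no strand; 348 rows with scaffold coordinates, 1 of them an Olfr gene, were left out, and strand came from 940 Olfr start windows. Olfr symbols with a pseudogene suffix, 4 of them protein-coding, counted as receptors only for the 5 kb rule.

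The members and lists were chosen with earlier results of these data known. Named peaks were the 10 of highest fold, the 10 of highest pileup, the 5 widest and those at the limits; named genes were 11 well-studied receptors and those with an end peak of fold 10 or more. The highest member of each large cluster, also in that rule, is not printed for all clusters. The limits for compact genes and clusters were set after the data were seen. Intervals are 95% Wilson or exact Poisson, a count of 0 also has a limit of 3 counts, and they cover counting error only. Planned and added alternatives are given in the closing section. The scripts were tested on simulated data and ran in Python 3.11.15 with numpy 2.4.6, pandas 2.3.3, scipy 1.17.1 and matplotlib 3.10.9.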

Additional observations from a re-analysis of the deposited data

How the results depend on the processing

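The number of members ran from 1381 to 2162 over 9 alternatives, within 1.5 times of 1907, and the share near Olfr ends stayed within its interval in all 9. Stricter limits, which keep fewer peaks, moved other values: with −log10 q of at least 5 the median fold was 6.53 and density 55.2 per Mb, and with a fold of at least 5 they were 7.07 and 43.9, with a median pileup of 25. Density of other sequence was not counted under these limits, so these densities cannot be set beside the 42.8 per Mb above. Without the Olfr987 to Olfr1274 cluster, an alternative chosen after seeing the data, density was 54.4. The share of Olfr genes with an end peak was 16.9% with a fold of at least 5 (17.47% moved), 17.1% within 500 bp (15.5% moved), 32.5% within 2500 bp (35.4% moved) and 16.9% with 200 bp shared (17.56% moved). Only the 500 bp window put it above the moved windows, and with the summit inside the window both were 17.8%. The share of compact Olfr genes with a summit inside was 12.6% with a fold of at least 5 (3.17% moved) and stayed within its interval under the 4 other alternatives, all chosen after seeing the data. No paired analysis was possible because there is 1 library per antibody. Whether the peaks recur in other libraries cannot be read from these data, and a share of 0 is limited by the number of genes.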
